A study of Mus musculus with 8 samples.

Results

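The genes described here are 10 members of the circadian clock and its direct outputs: the activators Arntl and Npas2, the repressors Nr1d1, Nr1d2, Per1, Per2, Per3 and Ciart, and the output factors Dbp and Tef. They were chosen by name from textbook membership of the clock, and all 10 of them were found on the array, with 13 probes among 16309 named genes. Gene expression was measured with 1-colour Agilent whole mouse genome arrays in the mucosa of the middle colon, taken 2.5 to 3.5 cm from the ileocecum, and of the rectum, the last 7 mm before the anus. Wild-type (WT) mice were compared with mice lacking interleukin 18 (IL18ko), and within each genotype controls, which stayed in the cage of their brothers, were compared with mice isolated in single cages (stress). Tissue, genotype and housing give 8 groups, with 1 array per group and RNA of 5 mice pooled on it, so no group had a replicate. All mice were group-housed brothers until 10 to 12 weeks of age. The labels give the hour of death as 10 AM for every group. Control mice were killed at that age and stressed mice after 8 or 16 days alone, since the description of the design and the treatment protocol differ. The lighting schedule and the strain were not given in the sources used here, and each group was sampled at that hour alone.

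The clock is a feedback loop of transcription. The proteins of Arntl (also called Bmal1) and of Clock or its relative Npas2 pair and bind the E-box, a short DNA motif, and so switch on the Per, Cry, Nr1d1, Nr1d2, Ciart, Dbp and Tef genes. The PER and CRY proteins and CIART then hold back the activators, while NR1D1 and NR1D2 (REV-ERB alpha and beta) bind another motif, the RORE, and repress Arntl and Npas2. DBP and TEF carry the rhythm to further genes through the D-box, where NFIL3 opposes them. In nocturnal rodents the transcripts of Nr1d1 and Dbp are high by day and low by night, and that of Arntl runs opposite to them. Intestinal epithelium has such a clock, which follows meals and glucocorticoids as well as light.

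These motifs are shown for the members because they are the sites through which the loop is known to work. RefSeq promoter windows (GRCm38.p6, 250 bases before to 50 after a transcript start) matched 9 of the 10 genes, all but Per2, with 12 windows. They were searched on both strands for the E-box CACGTG, the E-box-like CACGTT, the D-boxes TTATGTAA and TTACGTAA, and the RORE cores TAGGTCA and TGGGTCA, none of which overlapped another in the members. Ciart had 3 E-boxes, beginning 116, 58 and 44 bases before its start, in chr3:95882247-95882364 on the minus strand. Per1 had 1 in chr11:69098763-69098808 on the plus strand, and Tef had 1 before each of its starts, in chr15:81802526-81802571 and chr15:81811256-81811301 on the plus strand. Nr1d1 had the E-box-like motif in chr11:98775380-98775425 and Per3 had 2 D-boxes in chr4:151044796-151044890, both on the minus strand. Arntl had a RORE core 31 bases after 1 of its starts, in chr7:113207531-113207557 on the plus strand. The windows of Dbp, Nr1d2 and Npas2 held none of these motifs, and an E-box was found in 3 of the 9 genes. The stretches are printed 5′ to 3′ on the gene's strand, with the motif in capitals.

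Ciart: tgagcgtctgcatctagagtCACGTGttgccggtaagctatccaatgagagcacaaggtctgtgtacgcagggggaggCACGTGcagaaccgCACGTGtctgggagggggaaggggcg
Per1: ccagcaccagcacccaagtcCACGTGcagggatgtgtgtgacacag
Tef, first start: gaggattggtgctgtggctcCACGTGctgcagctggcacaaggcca
Tef, second start: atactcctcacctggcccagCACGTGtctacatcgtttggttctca
Nr1d1: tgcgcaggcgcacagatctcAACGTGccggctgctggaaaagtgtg
Per3: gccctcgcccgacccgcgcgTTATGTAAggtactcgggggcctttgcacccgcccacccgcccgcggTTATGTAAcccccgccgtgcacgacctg
Arntl: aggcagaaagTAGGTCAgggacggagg

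Among all 32851 windows of this length, 7.15% held the E-box, 4.68% the E-box-like motif, 1.06% a D-box and 6.45% a RORE core. Windows with 3 or more E-boxes, as in Ciart, numbered 29. A match describes letters in the window and is not a measured binding site.

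On each array 62.2% to 66.4% of the 43379 spots exceeded background clearly, and none was saturated. Il18 was above background on all 4 WT arrays and on none of the 4 IL18ko arrays, which fits the labels. The epithelial marker list, Epcam and Cdx2 among them, was above background with 11 of 11 genes on every array. The WT stress rectum array stood apart. Of the genes above background, 25.1% differed over 1.5-fold between it and WT control rectum, and 32.4% between it and IL18ko stress rectum. The other 6 such comparisons of 1 array with 1 array gave 5.62% to 17.6%. Values without it are given beside the results that rest most on it. Colon and rectum arrays were on separate slides, 1 for each tissue, and the effects of slide and tissue cannot be told apart. Levels below are log2 intensities relative to the 75th percentile of the array and are compared within a gene only. In bulk mucosa, fewer cells of a type and less RNA per cell cannot be told apart.

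The first comparison set rectum against colon. Of the 10 members, 8 were higher in rectum in limma, fitted to rectum minus colon within each of the 4 mouse groups (adjusted p under 0.05), while 14.1% of the 12720 genes tested were called higher and 29.9% in either direction. The 8 were the 6 repressors and both output factors. Per3 and Ciart are dim in colon and could reach the filter, 4 arrays above background, through rectum alone. Of the 8 members above background on all 8 arrays, 6 were called higher with testing limited to such probes. Under that filter 2990 of all 23565 probes were called higher. The median difference over all 10 members was 1.15 on the log2 scale, and over all genes tested 0.03. The activators Arntl and Npas2 did not pass. For 7 members all 4 rectum arrays lay above all 4 colon arrays, which held for 17.0% of genes tested. They include the dim Per3 and Ciart, and Npas2, whose lowest rectum array (-2.34) lay just above its highest colon array (-2.36). Per1, Per2 and Arntl overlapped.

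Nr1d1, the nuclear receptor that represses Arntl, had the largest fitted difference among the members, a rank that sets aside the uncertain size of the Ciart and Per3 differences. Its log2 level in colon was -2.96 in WT control, -2.63 in WT stress, -3.59 in IL18ko control and -2.62 in IL18ko stress mice. In rectum the same groups stood at 0.01, 0.22, -0.51 and 0.10. The lowest rectum array thus lay more than 2 log2 units above the highest colon array. Nr1d1 rose by 2.90 ± 0.12 (log2, SE, n = 4 pairs; adjusted p = 2.48e-05 in limma), which is 7.49-fold. The 4 differences ran from 2.72 to 3.08, and 265 of the 12720 genes tested differed more.

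Its paralog Nr1d2, which acts on the same targets, had a smaller difference. In colon it was at -0.36, -0.25, -0.75 and -0.59 (WT control, WT stress, IL18ko control and IL18ko stress), and in rectum at 0.32, 1.03, 0.08 and 0.29. The tissues did not overlap, and WT stress rectum was the highest array. Nr1d2 rose by 0.92 ± 0.13 (log2, SE, n = 4 pairs; adjusted p = 0.00305 in limma), and by 0.80 without the WT stress pair.

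The 3 Period genes, which encode the partners of the CRY repressors, were all higher in rectum. Per3 differed most, from -7.47, -6.02, -6.54 and -6.47 in colon to -4.85, -4.50, -4.88 and -4.26 in rectum, in the same order of groups. Of the colon arrays only WT stress measured Per3 above background, so the fitted rise of 2.00 ± 0.26 (log2, SE, n = 4 pairs; adjusted p = 0.00215 in limma) is not exact. For the 3 other pairs the rectum was 6.17-fold (WT control), 3.15-fold (IL18ko control) and 4.61-fold (IL18ko stress) higher. Here and below, such a fold sets the dim array at the higher of its own value and the lowest signal of any probe well above background there. The true level of a dim array could lie above or below that, so such folds are not bounds.

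Per1, which also responds to glucocorticoids, was at -0.50, 0.09, 0.28 and -0.17 in colon and at 0.19, 0.65, 0.97 and 0.95 in rectum. The tissues overlapped, since WT control rectum lay below IL18ko control colon, yet the rectum was higher in 4 of 4 pairs. The difference was 0.76 ± 0.13 (log2, SE, n = 4 pairs; adjusted p = 0.00599 in limma). Per2 was at -1.68, -1.84, -0.90 and -1.36 in colon and at -0.91, -0.81, -0.46 and -0.79 in rectum, again higher in 4 of 4 pairs with overlapping tissues. Per2 rose by 0.71 ± 0.13 (adjusted p = 0.0102 in limma), and did not pass without the WT control pair (0.68, adjusted p = 0.0684). A dimmer second probe of Per2 differed by 0.44 (adjusted p = 0.132), higher in 4 of 4 pairs.

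Ciart, the repressor whose promoter carried the 3 E-boxes, was at -6.30, -8.24, -5.81 and -5.64 in colon and at -4.11, -3.47, -4.95 and -4.71 in rectum. Both WT colon arrays were below background. The IL18ko arrays were above it in both tissues, with rectum 1.82-fold higher in control and 1.91-fold higher in stress mice. In WT mice, with the dim colon arrays set as for Per3, the rectum was 4.56-fold (control) and 17.3-fold (stress) higher. The fitted rise of 2.19 ± 0.64 (log2, SE, n = 4 pairs) takes those dim values as measured and is not exact. Its adjusted p was 0.0479 in limma, and it was 0.52 (adjusted p = 0.0569) with model-based background correction, which shrinks dim values. The call was also lost without the filter (adjusted p = 0.0658), without the variance trend (0.0611), and without the WT control pair (adjusted p = 0.150) or the IL18ko control pair (adjusted p = 0.0652). Without the WT stress pair it was 1.33 (adjusted p = 0.0135).

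The output factors Dbp and Tef, both of the same family of leucine zipper activators, were higher too. Dbp was at -0.01, 0.39, 0.22 and 0.54 in colon and at 1.26, 2.55, 1.07 and 1.82 in rectum. WT stress rectum was again the highest array, and the tissues did not overlap. Dbp rose by 1.39 ± 0.21 (log2, SE, n = 4 pairs; adjusted p = 0.00387 in limma), and by 1.13 without the WT stress pair. Tef was at -1.71, -1.30, -1.09 and -1.37 in colon and at -0.06, 0.04, 0.06 and 0.29 in rectum. Its 4 rectum arrays lay close together and apart from colon, a rise of 1.45 ± 0.13 (adjusted p = 0.000511 in limma). The second probe of Tef rose by 1.38 (adjusted p = 0.00553). The third was above background on 3 rectum arrays and no colon array, and was not tested.

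Neither activator passed, though Npas2 was at the threshold. Arntl was at 1.66, 1.61, 1.71 and 1.88 in colon and at 1.95, 1.45, 2.09 and 1.93 in rectum, with WT stress rectum the lowest of all 8 arrays. The difference of 0.14 ± 0.12 had a 95% interval from -0.15 to 0.44 (adjusted p = 0.435 in limma). Without the WT stress pair it was 0.25 (adjusted p = 0.0792). Npas2, which can replace Clock as partner of Arntl, was at -2.62, -2.36, -2.47 and -2.48 in colon and at -1.96, -2.34, -1.76 and -1.64 in rectum. Its difference of 0.56 ± 0.17 lay at the threshold (adjusted p = 0.0501 in limma), and it passed without the WT stress pair (0.74, adjusted p = 0.00239). It passed as well with quantile normalization (0.60, adjusted p = 0.0307), with median centring (0.61, 0.0301) and with the 8 arrays as independent (0.0279). Npas2 did not pass in limma without the WT control pair (0.52, adjusted p = 0.191), the IL18ko control pair (0.50, 0.195) or the IL18ko stress pair (0.46, 0.145).

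**Figure D1:**
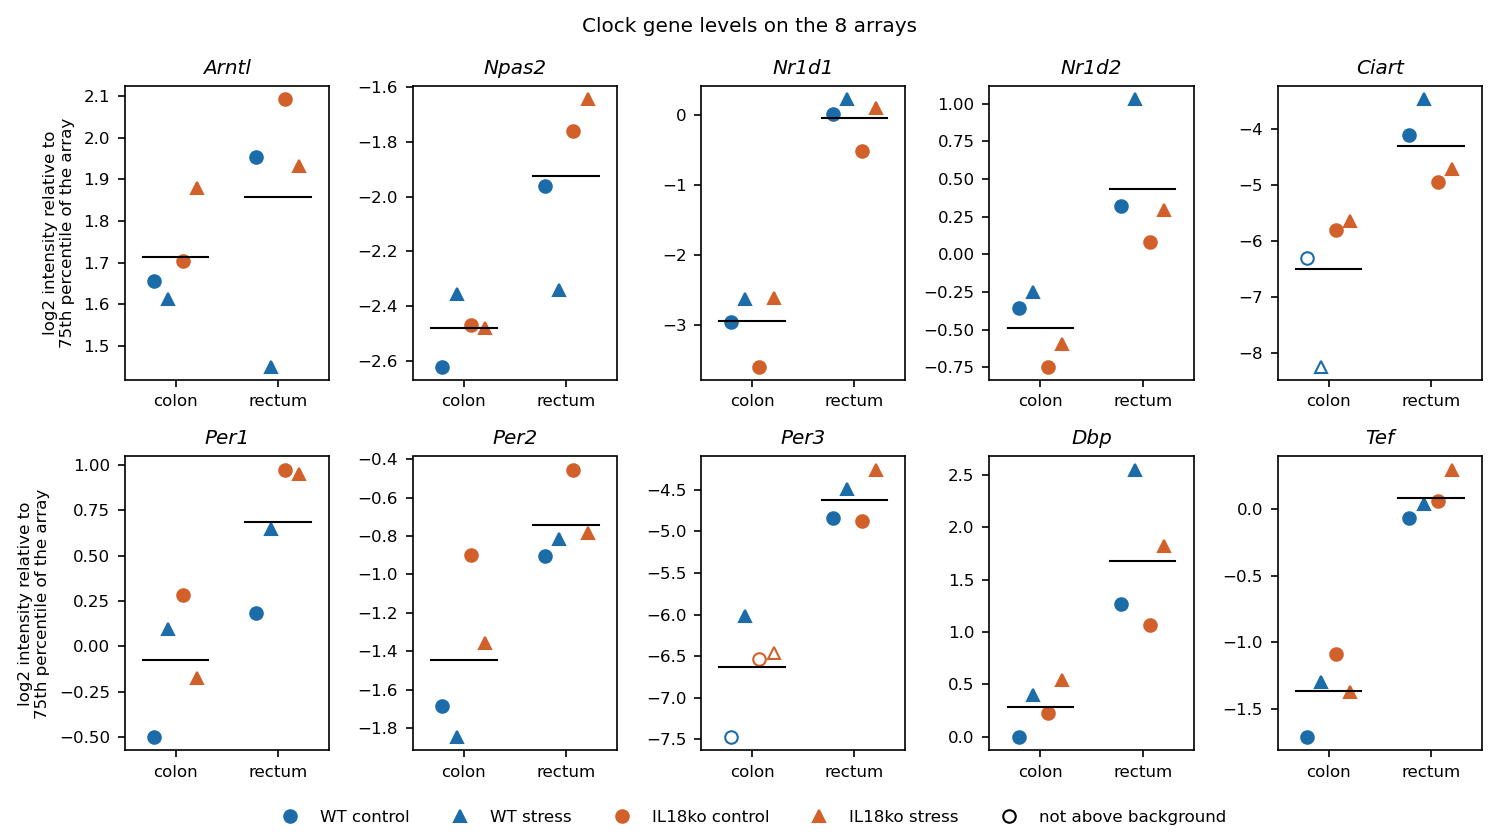
Level of each gene (log2 intensity relative to the 75th percentile of the array) on the 4 colon and 4 rectum arrays, with WT in blue, IL18ko in orange, control as circles and stress as triangles. Open symbols are not well above background, lines are means over 4 arrays, and each panel has its own axis; Nr1d1 runs from -3.59 to -2.62 in colon and from -0.51 to 0.22 in rectum.

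**Figure D2:**
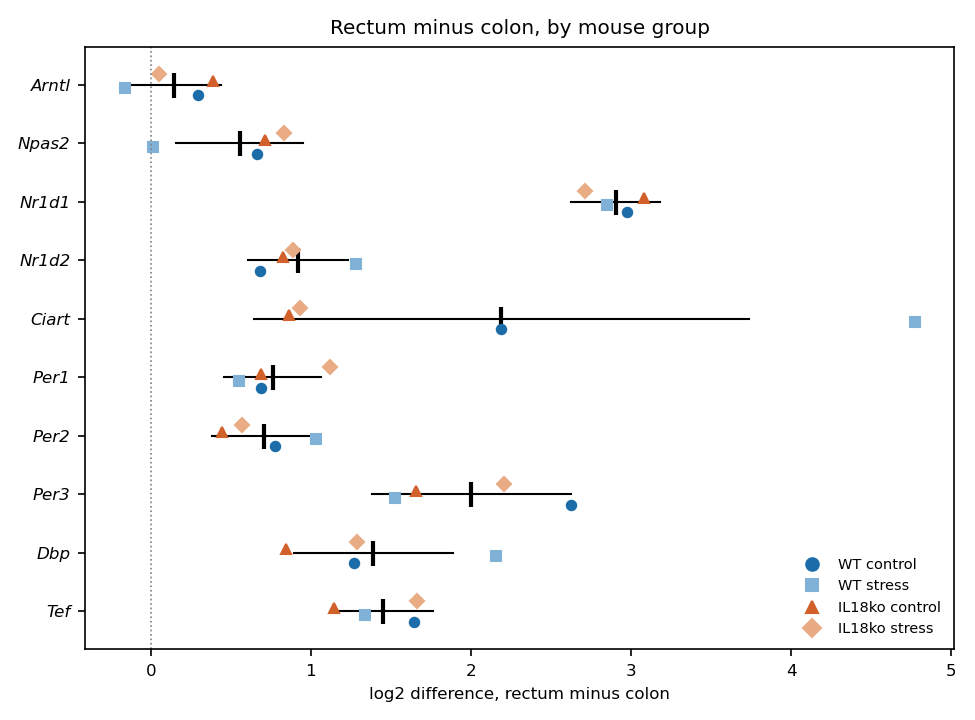
Rectum minus colon difference (log2) of the 10 genes in the 4 mouse groups (symbols), with the fitted mean (vertical bar) and its 95% interval from limma (line). All 4 symbols lie above 0 for each gene except Arntl, whose WT stress pair is at -0.16.

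Skeletal muscle genes moved with tissue, and their level in rectum differed widely between groups. Of the 14 muscle markers on the array, 8 were called higher in rectum and 0 lower. Their summed level, with the 75th percentile of the array as 1, ran from 3.72 to 6.40 in colon and from 7.25 to 171 in rectum. The markers above background numbered 9 to 14 in colon and 13 or 14 in rectum. In WT control mice the sum was 4.09 in colon and 7.25 in rectum, and in IL18ko control mice 3.72 and 171. Nr1d1 differed by 2.97 in the former pair and by 3.08 in the latter, Tef by 1.65 and 1.14, and Dbp by 1.27 and 0.85. Per2 differed by 0.78 and 0.44, Nr1d2 by 0.68 and 0.83, and Per1 by 0.69 in both. In WT stress mice the muscle sum was 6.40 in colon and 23.0 in rectum and Nr1d1 differed by 2.85, and in IL18ko stress mice the sums were 5.50 and 38.0 and Nr1d1 differed by 2.72. Markers of other cell types moved with tissue as well. Of the 11 epithelial markers 2 were higher and 2 lower, with Cdx2 12.5-fold and Krt20 1.56-fold lower in rectum. Macrophage and dendritic cell markers were higher (5 of 8 called, sums of 23.0 to 40.2 in colon and 33.9 to 85.2 in rectum). Enteric neuron and glia markers were lower (7 of 7, sums of 15.6 to 18.9 and 4.08 to 6.40), as were adipocyte markers (6 of 9, sums of 29.8 to 62.9 and 11.7 to 44.2) and T and NK cell markers (4 of 8, sums of 0.540 to 0.770 and 0.213 to 0.350). Of 6 B and plasma cell markers 2 were higher and 3 lower, and of 6 squamous markers 3 were higher and 1 lower. The part of these cells in the clock gene differences was not tested.

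**Figure D3:**
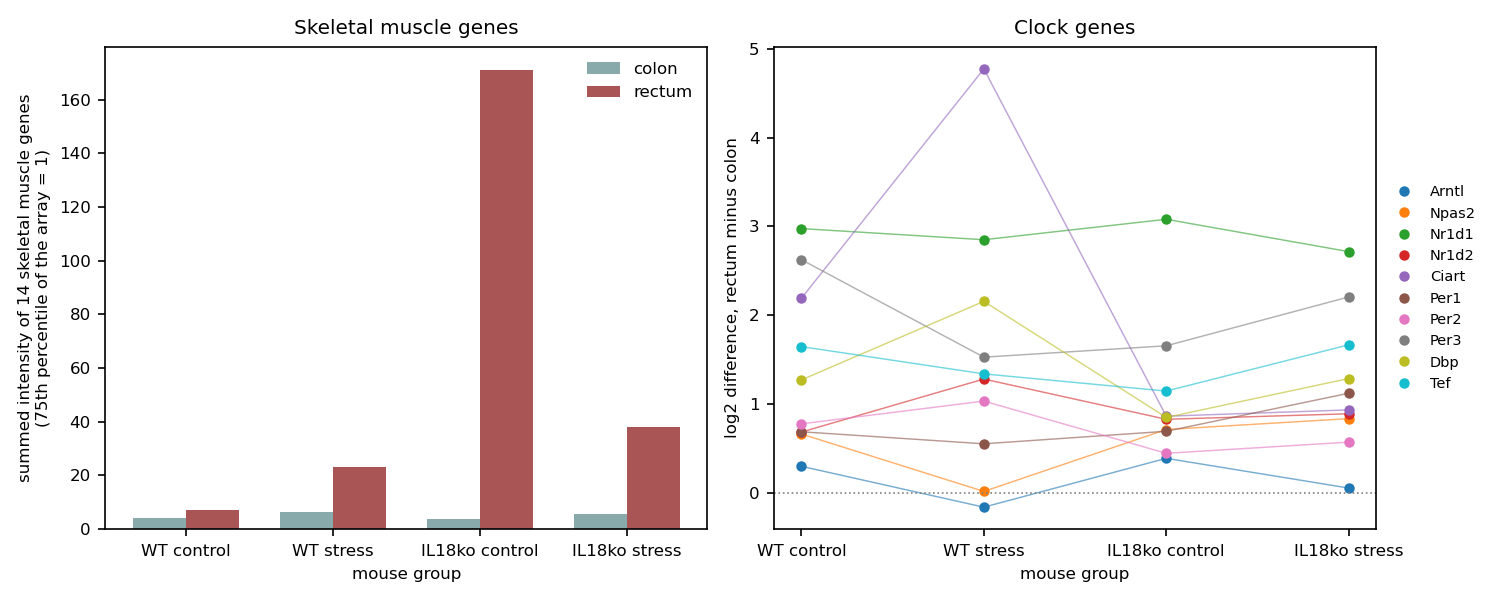
Left, summed intensity of the 14 skeletal muscle genes (75th percentile of the array as 1) in colon and rectum of each mouse group; right, rectum minus colon log2 difference of each clock gene in the same groups. Muscle signal in rectum ranges from 7.25 in WT control to 171 in IL18ko control mice, and the Nr1d1 difference from 2.72 in IL18ko stress to 3.08 in IL18ko control mice; Per3 and Ciart values rest on colon arrays partly below background.

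Of 19 further genes of the clock machinery on the array, 15 were tested and 5 differed between the tissues, 3 higher and 2 lower in rectum. That is near the 29.9% of all genes tested that were called in either direction. The median difference of the 15 was 0.20. The repressor Cry2 rose by 0.75 ± 0.15 (log2, SE, n = 4 pairs; adjusted p = 0.0123 in limma) and Bhlhe40, an E-box binding repressor, by 0.67. In contrast, Nfil3, which opposes Dbp and Tef at the D-box, fell by 1.97 ± 0.16 (adjusted p = 0.000321), and Cry1 fell by 0.92 ± 0.22 (adjusted p = 0.0263). Both were lower in 4 of 4 pairs. Nfil3 had a mean level of 1.70 in colon and -0.27 in rectum, opposite in direction to Dbp and Tef. Clock, the usual partner of Arntl, differed by 0.70 (adjusted p = 0.0602) and Hlf, the third relative of Dbp and Tef, by 0.66 (adjusted p = 0.0558). Of 14 genes known as clock outputs, 1 was higher and 3 lower, again near the share of all genes called. Klf9 was higher by 0.49. Pdk4, a switch from glucose to fat oxidation, fell by 2.51, the haem synthesis enzyme Alas1 was 2.14-fold lower and the NAD synthesis enzyme Nampt fell by 0.47. The median difference over the 14 was 0.01, near that over all genes tested.

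The genotype comparison asked whether clock genes differ in mice without IL-18. It was fitted with limma to the 4 tissue means, together with housing. Of the 10 members, 1 was called higher and 1 lower in IL18ko mice, while 6.63% of all genes tested were called higher, 6.36% lower and 13.0% in either direction. Nr1d2 was lower on each of the 4 IL18ko arrays than on its WT counterpart, by 0.39 in control and 0.34 in stress colon and by 0.24 and 0.74 in control and stress rectum, where 27.8% of all genes tested shared a direction in 4 of 4 pairs. It fell by 0.43 ± 0.11 (SE on the log2 scale, 2 mouse groups per genotype; adjusted p = 0.0246 in limma). Per2 was higher in 4 of 4 pairs, by 0.78, 0.49, 0.45 and 0.03 in the same order, a rise of 0.44 ± 0.13 (adjusted p = 0.0388 in limma). The second Per2 probe did not share it (-0.10, adjusted p = 0.827). With the 8 arrays treated as independent neither gene passed in limma (adjusted p = 0.126 for Nr1d2 and 0.144 for Per2). Neither did without the variance trend (0.159 and 0.175) or without the filter on dim probes (0.224 and 0.253). Per2 was also lost with quantile normalization (0.0748), median centring (0.117) and the mean over its probes (0.516). Both kept their calls with mouse group as a random block. In the fit of single arrays both passed when WT stress rectum was left out (Nr1d2 -0.31, adjusted p = 0.0458, and Per2 0.56, 0.0200). Leaving out any other single array instead, neither passed (adjusted p from 0.145 to 0.406 for Nr1d2 and from 0.162 to 0.415 for Per2). The correlation between the 2 tissues of a mouse group, estimated over all probes after tissue, genotype and housing were fitted, was -0.47. With that estimate, a mean over both tissues varies less than arrays that are independent would. The estimate rests on 1 residual degree of freedom between mouse groups and takes in genotype or housing differences that vary with tissue.

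The other members did not pass for genotype. Nr1d1 differed by -0.32 (95% interval -0.62 to -0.02) and was lower in 3 of 4 pairs, while Per1 differed by 0.40 (0.09 to 0.71) and was higher in 3 of 4. Arntl was higher in 4 of 4 pairs, by 0.23 (0.00 to 0.46), and Npas2 in 3 of 4, by 0.23 (-0.06 to 0.52). The output factors differed by -0.14 for Dbp (-0.37 to 0.10) and 0.23 for Tef (-0.02 to 0.48). Per3 (0.17, -0.45 to 0.79) and Ciart (0.25, -0.37 to 0.87), both dim in colon, had the widest intervals of the 10. Between single arrays, 4 of 10 members differed over 1.5-fold in control colon, where 9.01% of genes did. In stress colon 1 of 10 did (17.6% of genes), in control rectum 2 (12.0%) and in stress rectum 4 (32.4%). Among the further clock genes, 3 of 15 were higher and 0 lower in IL18ko mice, where 13.0% of all genes tested were called in either direction. They are named here after their values were seen: Hlf by 0.85, the RORE activator Rora by 0.62 and Nfil3 by 0.39. Of the 14 outputs Pdk4 was higher by 1.04 and Usp2 by 0.48. Adipocyte markers moved with genotype (8 of 9 called higher, sums of 11.7 to 61.5 in WT and 33.3 to 62.9 in IL18ko mice), as did skeletal muscle markers (7 of 14, sums of 4.09 to 23.0 and 3.72 to 171). Smooth muscle markers did so too (5 of 9, sums of 485 to 632 and 608 to 831), and of 11 epithelial markers 1, Cdx2, was 2.59-fold higher. Their part in the clock gene differences was not tested.

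Whether the genotype difference depended on tissue was tested on the 4 rectum minus colon differences, where limma called 1 of 10 members and 0.550% of all genes. That gene was Ciart. It was 1.80-fold lower in IL18ko than in WT rectum in control mice and 2.35-fold lower in stress mice, with all 4 rectum arrays above background. In colon the measured direction was opposite, 1.40-fold higher in control and 3.85-fold higher in stress IL18ko mice. Both WT colon arrays were below background, so neither the direction nor the size there is firm. The rectum difference less the colon difference was -2.58 ± 0.64 (adjusted p = 0.0174), with the dim WT colon values taken as measured, so its size is not exact. It was -1.33 in control mice and -3.84 in stress mice. The latter was -1.24 in rectum less 2.61 in colon, where WT stress was below background at -8.24. It also takes in WT stress rectum, the array that stood apart. Without the WT stress pair no test can be made. With model-based background correction the fitted rectum less colon difference was -0.71 (adjusted p = 0.203 in limma). Skeletal muscle markers moved in this comparison too (11 of 14 called higher), and their part in the Ciart difference was not tested.

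The housing comparison set stressed against control mice. Stressed mice were killed 8 or 16 days later in age than controls, so isolation and age at death cannot be told apart. In the same fit as for genotype, 1 of the 10 members was called, with 0.0393% of all genes called higher and 0.0629% in either direction. That gene was Dbp. In WT colon it went from -0.01 in control to 0.39 in stress mice and in IL18ko colon from 0.22 to 0.54. In rectum it went from 1.26 to 2.55 in WT and from 1.07 to 1.82 in IL18ko mice. Stressed mice were thus higher in 4 of 4 pairs, by 0.40, 0.31, 1.28 and 0.75, and the rise was 0.69 ± 0.11 (SE on the log2 scale, 2 mouse groups per housing; adjusted p = 0.0357 in limma). The call was lost with the 8 arrays as independent (adjusted p = 0.897), without the variance trend (0.695), and with quantile normalization (0.182) or median centring (0.270), where the difference was 0.66 and 0.67. Without the WT stress rectum array the difference was 0.46 (adjusted p = 0.739 in the fit of single arrays).

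Nr1d1 and Nr1d2 were also higher in stressed mice in 4 of 4 pairs without passing. Nr1d1 differed by 0.53 (95% interval 0.23 to 0.83; adjusted p = 0.234 in limma), with pairs of 0.34 in WT colon, 0.98 in IL18ko colon, 0.21 in WT rectum and 0.61 in IL18ko rectum. Nr1d2 differed by 0.29 (0.06 to 0.53), with pairs from 0.11 to 0.71. Per3 differed by 0.62 (0.00 to 1.24) in 4 of 4 pairs. Its WT colon pair was 2.73-fold with the control array below background, and its IL18ko colon pair was below background on both arrays. A shared direction in 4 of 4 pairs held for 14.4% of all genes tested. Per1 (0.14), Per2 (-0.21), Ciart (-0.22), Tef (0.12), Arntl (-0.13) and Npas2 (-0.00) had intervals that included 0. No further clock gene of 15 and no output of 14 was called by limma, with 3 and 5 of them at an unadjusted p under 0.05, and the fit of 8 single arrays called 0 of all probes. In the test of whether the housing difference depended on tissue, limma called 0 of 10 members, with 0.181% of all genes called and 1 member at an unadjusted p under 0.05.

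**Figure D4:**
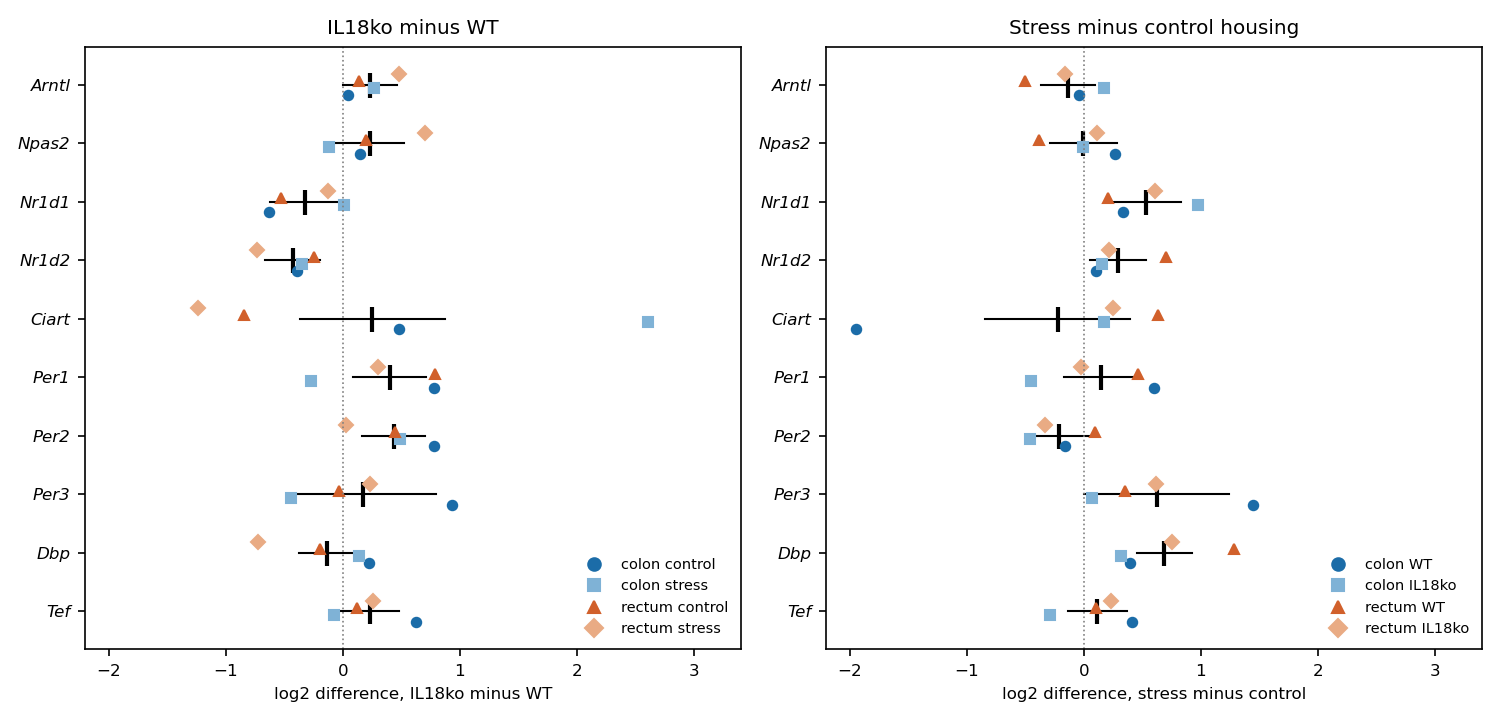
Left, IL18ko minus WT and right, stress minus control difference (log2) of the 10 genes in the 4 pairs of arrays (symbols), with the fitted mean (vertical bar) and its 95% interval from limma (line). Dbp lies above 0 in all 4 stress pairs, from 0.31 to 1.28, and Nr1d2 below 0 in all 4 genotype pairs, from -0.74 to -0.24.

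Since activators and repressors run opposite in a turning clock, the members were also set side by side within single comparisons of 1 array with 1 array, which have no test. In WT rectum under stress, all 8 repressors and outputs stood higher and both activators lower than in control mice. Dbp was 2.43-fold, Nr1d2 1.63-fold and Ciart 1.55-fold higher, past the 1.5-fold that 25.1% of genes passed between these arrays. Arntl was lower by 0.50 and Npas2 by 0.38 on the log2 scale. In IL18ko rectum 6 of 8 repressors and outputs were higher under stress and the activators split, with Dbp 1.68-fold, Nr1d1 1.53-fold and Per3 1.54-fold higher, past what 5.62% of genes passed. In colon, 6 of 8 were higher in WT mice, where Per1 (1.51-fold) and Per3 (2.73-fold, its control array below background) passed 1.5-fold as 6.66% of genes did. In IL18ko colon 5 of 8 were higher, with Nr1d1 1.97-fold higher, where 10.2% of genes passed 1.5-fold. Of the 4 stress comparisons, the one in WT rectum alone had every repressor and output on one side and both activators on the other, and it rests on the array that stood apart. None of the 4 genotype comparisons of single arrays had such a split. In IL18ko mice 6 of 8 repressors and outputs were higher in control colon, 4 in stress colon, 3 in control rectum and 4 in stress rectum.

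The mean level of the 8 repressors and outputs minus that of Arntl and Npas2 gave 1 contrast per array. It was -2.14 in WT control, -2.10 in WT stress, -1.89 in IL18ko control and -1.91 in IL18ko stress colon. In rectum it was -1.01, -0.09, -1.25 and -0.93. WT stress rectum was the highest array. Per3 and Ciart enter the colon values as measured, partly below background, and the step between the tissues restates the differences above. After each tissue's mean was taken off, the genes most like the contrast over the 8 arrays, out of 7435 above background with a span of at least 0.5, were Tsen54, Mif4gd, Rlim, Arhgap8 and Eci2. The most opposite were Casq2, Plekhf1, Tsc22d3, Calb2 and Fam50a. These are descriptions, and the likeness leans on WT stress rectum to a degree that varies by gene. Without that array Pearson's r went from 0.97 to 0.79 for Tsen54 and from -0.97 to -0.79 for Tsc22d3. It was then 0.66 for Eci2 and -0.65 for Fam50a, while Casq2 went from -0.99 to -0.92. Tsc22d3 is 1 of 7 glucocorticoid-responsive genes tested as a list, Per1 among them, of which limma called 0 for housing (3 at an unadjusted p under 0.05), with a median difference of 0.11.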

How the data were processed

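Each array's scanner output was used. Per the file headers, the spot intensity came from Feature Extraction 9.5.1.1, on a linear scale with background subtracted. The authors' deposited table of processed values gives, per the labels, each array as a linear ratio over control colon of WT mice. Its log2 values correlated with the ratios from the scanner files, with the lowest r, 0.9949, for IL18ko control rectum. Their scaling and tests are not given in the sources used here.

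Outlier spots were removed and log2 intensities averaged per probe, leaving 40963 of 41174 probes. Transcript accessions named 22857 probes through RefSeq. Log2 values were centred on the 75th percentile of their array. Testing was limited to probes that at least 4 arrays measured well above background (26273 probes, 12720 genes), and the brightest probe stood for its gene. The 10 members all passed, Ciart on 6 and Per3 on 5 arrays.

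Tissue was tested on 4 rectum minus colon differences, genotype and housing on 4 tissue means (1 residual degree of freedom), and their dependence on tissue on the differences, with limma 3.58.1 in R 4.3.3, a variance trend and Benjamini-Hochberg adjustment over all probes. SEs come from limma. The labels do not say that both pools of a mouse group came from the same mice. P-values rest on variances between these pools that limma shares across probes of like level. For genotype, housing and their dependence on tissue, only 1 residual degree of freedom comes from a gene's own pools. Those p-values thus mostly reflect the spread of other probes. The fits were tested on simulated data. Members, lists and tests were chosen with earlier results of these data known. Named genes were all members, listed clock and output genes called between tissues, and the 5 most and 5 least like the contrast. A listed gene that the rule would name is not reported here. Alternatives were other scalings, background correction (normexp, offset 50), the deposited ratios, filters, no trend, other designs, leaving out arrays or pairs, and the mean over a gene's probes. Figures used Python 3.11.15 and matplotlib 3.10.9.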

Additional observations from a re-analysis of the deposited data

Results flagged for a closer look

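As measured, the IL18ko minus WT difference of Ciart was of opposite sign in the tissues, and the test of that dependence passed: rectum less colon gave -2.58 on the log2 scale. Averaged over housing, the difference was -1.04 in rectum. In colon both WT arrays were below background. With those arrays set as described for Per3, IL18ko was 1.40-fold higher in control and 3.85-fold higher in stress mice. The sign in colon is therefore not firm, and the tested size is not exact.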

How the results depend on the processing

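No member's called difference changed sign under any alternative run. For tissue, leaving out a pair gave 6 to 9 members called and 3480 to 10580 probes, against 8 and 7102. Members called numbered 7 of 10 with normexp, no filter or no trend, 6 of the 8 held with the deposited ratios or the filter on all 8 arrays, and 9 of 10 with quantile normalization, median centring or 8 independent arrays. The lowest counts on leaving out a pair came without the WT control pair and the highest without the WT stress pair.

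For genotype (3050 probes and 2 members called), leaving out an array in the fit of single arrays gave 6 to 3572 probes and 0 to 2 members, the highest without WT stress rectum. That fit with all arrays gave 32 probes and 0 members, a random block for mouse group 5316 probes, no trend 18 and 0, no filter 2 and 0, and median centring 1946 and 1. Quantile normalization and the mean over all probes of a gene each left 1 member. Calls were 1630 higher and 1420 lower, but 615 and 1331 with median centring.

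For housing (23 probes, 1 member), 0 of either passed when an array was left out, with the 8 arrays as independent, with the random block, without the trend or without the filter. Quantile normalization gave 4 probes and median centring 2 (1 higher and 1 lower), each with 0 members. Normexp gave 41 probes, the filter on all 8 arrays 81, and the deposited ratios 193 with 2 members, Nr1d1 (0.55) the second.

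For genotype by tissue (113 probes, 90 higher and 23 lower, with 1 member), the deposited ratios gave 40, the filter on all 8 arrays 46, no filter 396 and no trend 199. Ciart was lost with normexp, where 69 were higher and 54 lower, and is not held by the deposited ratios or the stricter filter, so 0 members were called there. For housing by tissue (50 probes, 18 higher and 32 lower) the counts were 33 with normexp (16 higher and 17 lower), 7 with the deposited ratios (4 higher and 3 lower), 11, 247 and 93 with those filters and without the trend. The deposited ratios shifted the median of all probes for genotype by tissue from 0.00 to 0.12. Per1 passed for genotype in the deposited ratios (0.40, adjusted p = 0.0110 in limma) and under the filter on all 8 arrays (adjusted p = 0.0485).

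With 1 array per group, the number of arrays limits precision, and the dim probes of Ciart and Per3 in colon limit theirs. No paired analysis was possible beyond the mouse group, because the labels give no replicate numbers.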
